A study of Mus musculus with 6 samples.

Results

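The platelet-derived growth factor (PDGF) family examined here comprises 4 ligand genes, Pdgfa, Pdgfb, Pdgfc and Pdgfd, and 2 receptor genes, Pdgfra and Pdgfrb. They were taken by symbol from a table of read counts for 16603 genes, and all 6 were found there. The counts came from bulk RNA-seq of mouse liver in 6 libraries, 3 labelled Mdr2-knockout and 3 labelled wild-type (WT). The series compared these livers to study the activation of hepatic progenitor cells and their path to bile duct epithelium. Mdr2 is the canalicular transporter that delivers phosphatidylcholine into bile, and mice without it develop bile duct injury and scarring. The labels give no age, sex, strain, treatment or allele for either group, and they do not say whether each library stands for its own animal. The p-values therefore rest on the spread among the libraries, which could be technical.

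PDGFs are disulfide-linked dimers that bind receptor tyrosine kinases at the cell surface. PDGF-A and PDGF-C act on PDGF receptor alpha, PDGF-D acts on receptor beta, and PDGF-B binds both receptors. PDGF-A and PDGF-B are cut to their active form inside the cell, whereas PDGF-C and PDGF-D are secreted with a CUB domain that proteases must remove outside it. In liver the receptors are carried by stellate cells and portal fibroblasts, and PDGF is known as a mitogen for stellate cells as they turn into matrix-producing myofibroblasts.

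The libraries held 17100393 to 18124467 counts, and 12612 genes had enough counts to be tested. The table heads its columns with the letters M and N. M was read as Mdr2-knockout because it begins that group's titles, and N as WT by elimination, so each direction below rests on that reading. Abcb4, the gene of Mdr2 (chromosome 5, 8893717 to 8959231, GRCm38), had 10071, 10188 and 8347 counts in the labelled Mdr2-knockout libraries, against 5190, 5776 and 4330 in the labelled WT libraries. It was thus higher where the label says knockout (log2 fold difference 0.57, edgeR adjusted p = 0.00389). The part of the gene that the allele removes is not stated and the count covers the whole gene, so this count cannot check the genotype, and groups are called by their labels throughout.

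All 6 PDGF genes rose in the labelled Mdr2-knockout libraries, by between 2.11-fold for Pdgfc and 4.44-fold for Pdgfb. Each passed edgeR's quasi-likelihood test at a Benjamini-Hochberg adjusted p under 0.05 over all tested genes. Of all 12612 tested genes, 20.9% were called higher by the same rule, and 11.1% were called higher by at least 2-fold. In each of the 6 genes every labelled Mdr2-knockout library lay above every labelled WT library, which held for 27.6% of tested genes, while 51.3% did not overlap in either direction. The median log2 fold difference of the 6 genes was 1.59, beside 0.0091 over all tested genes. Levels are given in CPM (counts scaled to a common library size) with trimmed mean of M-values (TMM) factors, and positive log2 fold differences mean higher values where the label says knockout. Values of single libraries are in the order of replicates 1, 2 and 3. In whole liver, a change in the number of cells that express a gene and a change in the RNA per cell cannot be told apart.

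**Figure D1:**
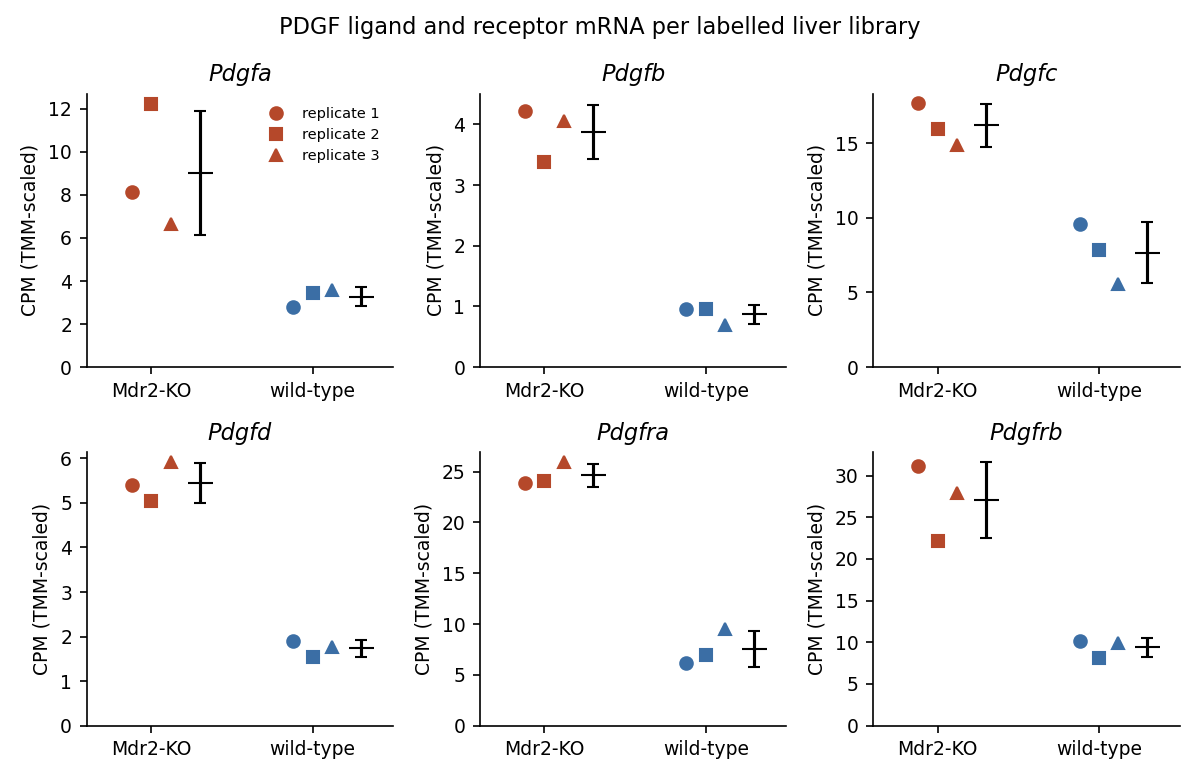
Level of each PDGF gene in CPM (vertical axes, starting at 0) in the 3 labelled Mdr2-knockout libraries (left, red) and the 3 labelled WT libraries (right, blue), with a marker shape for each replicate number and the mean ± SD beside the points. The groups do not overlap in any of the 6 panels, and Pdgfa runs from 6.65 to 12.2 CPM among the labelled Mdr2-knockout libraries.

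Pdgfa and Pdgfb encode the ligands that form the classical PDGF dimers. Pdgfa lies on chromosome 5 from 138976014 to 138997370, minus strand, and Pdgfb on chromosome 15 from 79995874 to 80014977, minus strand (GRCm38, GENCODE M21). Pdgfa stood at 8.13, 12.2 and 6.65 CPM in the labelled Mdr2-knockout libraries, against 2.80, 3.45 and 3.60 CPM in the labelled WT libraries. Its groups were apart, although labelled Mdr2-knockout replicate 2 stood well above the other two of its group. The means were 9.01 ± 2.89 CPM in the labelled Mdr2-knockout and 3.28 ± 0.425 CPM in the labelled WT libraries (SD, n = 3 each), a log2 fold difference of 1.46 (SE 0.24, edgeR adjusted p = 0.00132). Without labelled Mdr2-knockout replicate 2 the log2 fold difference was 1.17 (edgeR adjusted p = 0.0037), still past the threshold.

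Pdgfb, the ligand that binds both receptors and is made by endothelial cells, macrophages and platelets among others, showed the largest fold change of the family. It had 4.22, 3.37 and 4.05 CPM in the labelled Mdr2-knockout libraries, against 0.954, 0.958 and 0.694 CPM in the labelled WT libraries. The groups were far apart, and even the lowest labelled Mdr2-knockout library held more than 3 times the highest labelled WT value. The log2 fold difference was 2.15 (SE 0.25, edgeR adjusted p = 0.000172). Pdgfb was also the least abundant member. It rested on 85, 67 and 78 counts in the labelled Mdr2-knockout libraries and on 15, 15 and 11 in the labelled WT libraries, where the exact 95% Poisson interval of the lowest count was 5.49 to 19.7 and covers counting error only.

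Pdgfc and Pdgfd encode the ligands secreted in latent form. Pdgfc lies on chromosome 3 from 81036416 to 81214040 and Pdgfd on chromosome 9 from 6168584 to 6378850, both on the plus strand. Pdgfc had 17.7, 16.0 and 14.9 CPM in the labelled Mdr2-knockout libraries, against 9.60, 7.86 and 5.55 CPM in the labelled WT libraries. The labelled WT libraries were spread more widely than the labelled Mdr2-knockout libraries, with replicate 1 the highest. The log2 fold difference of Pdgfc was 1.08 (SE 0.17, edgeR adjusted p = 0.00123), the smallest of the 6. Pdgfd had 5.41, 5.04 and 5.92 CPM in the labelled Mdr2-knockout libraries, against 1.91, 1.53 and 1.77 CPM in the labelled WT libraries. Both groups of Pdgfd were tight, and the log2 fold difference was 1.65 (SE 0.19, edgeR adjusted p = 0.000184).

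The receptor genes had the smallest standard errors of the family. Pdgfra, on chromosome 5 from 75152292 to 75198215, plus strand, encodes the receptor that binds PDGF-A, PDGF-B and PDGF-C. It had 23.9, 24.1 and 25.9 CPM in the labelled Mdr2-knockout libraries, against 6.17, 6.96 and 9.53 CPM in the labelled WT libraries. The 3 labelled Mdr2-knockout libraries were nearly level, and labelled WT replicate 3 was the highest of its group. The log2 fold difference was 1.70 (SE 0.14, edgeR adjusted p = 2.58e-05).

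Pdgfrb, on chromosome 18 from 61045150 to 61085061, plus strand, encodes the receptor for PDGF-B and PDGF-D and is used as a marker of stellate cells and pericytes. It had 31.2, 22.2 and 28.0 CPM in the labelled Mdr2-knockout libraries, against 10.2, 8.11 and 9.91 CPM in the labelled WT libraries. Replicate 2 was the lowest library in each group. The log2 fold difference was 1.53 (SE 0.14, edgeR adjusted p = 5.05e-05). Because the strand setting of the counting is not given, reads from genes on the opposite strand inside these loci cannot be told apart from those of the PDGF genes. GENCODE M21 places antisense genes over parts of Pdgfa, Pdgfb, Pdgfc and Pdgfra, the protein-coding gene Ddi1 inside Pdgfd on the other strand, and 0 other genes over Pdgfrb.

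The size of the changes, but no direction or call among the 6 genes, depended on how libraries were scaled. Dividing by total counts in place of TMM factors moved the median log2 fold difference of all tested genes to 0.302, and it moved the 6 genes by a similar amount. Of all genes called, 56.2% were higher with TMM and 94.7% with total counts. Under total counts the log2 fold differences were 1.75 for Pdgfa, 2.44 for Pdgfb, 1.37 for Pdgfc, 1.94 for Pdgfd, 2.00 for Pdgfra and 1.82 for Pdgfrb. All 6 genes were called higher under each of the 4 scalings.

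**Figure D2:**
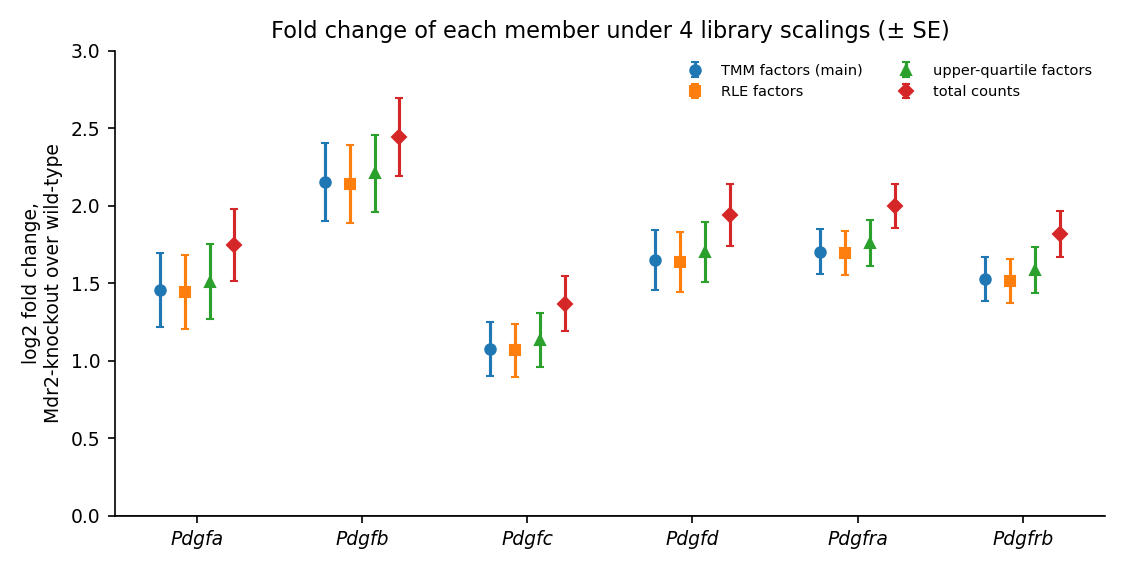
Log2 fold change of each PDGF gene, labelled Mdr2-knockout over labelled WT, under 4 library scalings, with error bars of 1 SE from edgeR. Values with TMM, RLE and upper-quartile factors lie close together, those with total counts lie highest for each gene, and none reaches 0.

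The promoters of 4 members, Pdgfa, Pdgfc, Pdgfd and Pdgfra, were found in a RefSeq promoter table (GRCm38.p6). They were searched because these genes changed in the same direction, over the 250 bases before each listed start and on both strands. The motifs were the CArG box of serum response factor, a factor that growth factor signalling activates in fibroblasts, the AP-1 motif TGANTCA, the GC box GGGCGG and the TATA motif TATAAA. Among 32817 windows of all genes, 1.47% held a CArG box, 6.75% the AP-1 motif, 32.7% a GC box and 12.4% the TATA motif. Windows of 3 genes are printed 5′ to 3′ on the gene's strand, with matches in capitals, because each differs from the others in which motif it holds.
Pdgfc promoter, chr3:81036166-81036415, plus strand: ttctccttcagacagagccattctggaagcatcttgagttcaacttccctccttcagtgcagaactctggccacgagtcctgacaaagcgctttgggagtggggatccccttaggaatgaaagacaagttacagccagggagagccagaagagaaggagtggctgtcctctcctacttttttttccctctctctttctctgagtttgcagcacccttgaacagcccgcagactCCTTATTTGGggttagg
Pdgfd promoter, chr9:6168236-6168362, plus strand: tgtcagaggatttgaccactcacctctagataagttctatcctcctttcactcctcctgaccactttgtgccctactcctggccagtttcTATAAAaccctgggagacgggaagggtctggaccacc
Pdgfra promoter, chr5:75152001-75152250, plus strand: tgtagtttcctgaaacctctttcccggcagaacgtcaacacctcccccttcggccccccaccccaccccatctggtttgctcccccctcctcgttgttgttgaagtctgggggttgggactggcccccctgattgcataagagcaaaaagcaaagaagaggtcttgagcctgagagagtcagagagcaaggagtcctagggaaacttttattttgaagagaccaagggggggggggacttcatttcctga
The match in Pdgfc is a CArG box, 17 to 8 bases before the start. The match in Pdgfd is the TATA motif, 160 to 155 bases before the listed start and 37 to 32 bases before the gene's first RefSeq base at 6168363, where the printed stretch ends. Pdgfra had no match, and a further RefSeq transcript of it begins upstream of the printed window. Both Pdgfa windows lie downstream of another annotated start of that gene. They held GC boxes in stretches not printed here, at or past the earliest start inside each window. No window of the 4 genes held the AP-1 motif. A match of letters is a description and shows no binding.

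Levels of different genes were compared in FPKM, the authors' values scaled for gene length and library size. Pdgfc and Pdgfrb were the highest of the family in both groups. In the labelled Mdr2-knockout libraries Pdgfc averaged 5.00 ± 0.459, Pdgfrb 4.91 ± 0.857 and Pdgfra 3.32 ± 0.158 FPKM (SD, n = 3). Pdgfd followed at 1.67 ± 0.144, Pdgfa at 1.48 ± 0.466 and Pdgfb at 1.04 ± 0.127 FPKM. Here the ranges of Pdgfc and Pdgfrb, of Pdgfd and Pdgfa, and of Pdgfa and Pdgfb overlapped. Within each library Pdgfb was nevertheless the lowest, although in replicate 3 its 1.09 FPKM lay close to the 1.10 FPKM of Pdgfa.

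In the labelled WT libraries Pdgfc averaged 1.94 ± 0.535, Pdgfrb 1.39 ± 0.185 and Pdgfra 0.829 ± 0.189 FPKM (SD, n = 3). Pdgfa stood at 0.440 ± 0.0513, Pdgfd at 0.433 ± 0.0543 and Pdgfb at 0.191 ± 0.0338 FPKM. The order was the same but for Pdgfa and Pdgfd, whose ranges overlapped. The ranges of Pdgfc and Pdgfrb also overlapped, and Pdgfb lay below all other members in every labelled WT library.

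The share of Pdgfb in the ligand mRNA was higher in each labelled Mdr2-knockout library than in each labelled WT library. It accounted for 11.8%, 9.66% and 12.7% of the summed FPKM of the 4 ligand genes in the labelled Mdr2-knockout libraries, against 6.01%, 6.92% and 6.15% in the labelled WT libraries. The groups did not overlap, and the exact two-sided permutation p was 0.1, the smallest that 3 against 3 libraries allow. Pdgfc was the largest part in every library, at 52.5% to 57.0% in the labelled Mdr2-knockout and 56.5% to 69.5% in the labelled WT libraries, and these ranges overlapped (exact permutation p = 0.2). The share of Pdgfd was 16.4% to 21.1% in the labelled Mdr2-knockout and 12.6% to 17.8% in the labelled WT libraries, overlapping as well (exact permutation p = 0.3). That of Pdgfa was 12.7% to 21.4% in the labelled Mdr2-knockout and 10.8% to 19.5% in the labelled WT libraries (exact permutation p = 0.8). Such shares do not depend on the scaling of libraries. Apart from the ratio of Pdgfrb to Pdgfra, the shares and ratios reported here were chosen with the values known.

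**Figure D3:**
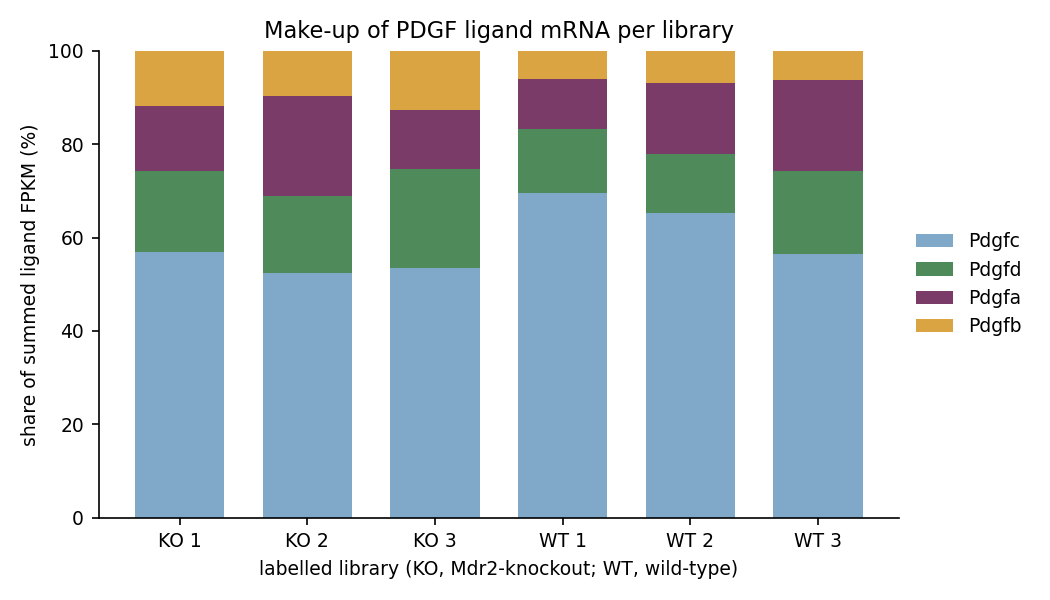
Share of each ligand gene in the summed FPKM of the 4 ligand genes (vertical axis, percent) for the 3 labelled Mdr2-knockout libraries (left) and the 3 labelled WT libraries (right). The Pdgfb segment at the top spans 9.66% to 12.7% in the labelled Mdr2-knockout and 6.01% to 6.92% in the labelled WT libraries, and Pdgfc is the largest segment in all 6.

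The balance between the 2 receptor genes was examined next. The ratio of Pdgfrb to Pdgfra in FPKM was 1.76, 1.24 and 1.45 in the labelled Mdr2-knockout libraries, against 2.22, 1.57 and 1.40 in the labelled WT libraries. The groups overlapped, with a difference of mean log2 ratios of -0.21 (exact two-sided permutation p = 0.5, smallest possible 0.1). That difference ran from -0.35 to -0.015 when 1 library at a time was left out. These 3 against 3 libraries could not show whether the receptors changed unequally. The summed ligands per summed receptors were 1.08, 1.29 and 1.00 in the labelled Mdr2-knockout and 1.60, 1.55 and 0.986 in the labelled WT libraries, also overlapping (exact permutation p = 0.4).

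Ligands were also set against a receptor that each binds. The ratio of Pdgfb to Pdgfrb was 0.201, 0.226 and 0.215 in the labelled Mdr2-knockout libraries, against 0.139, 0.175 and 0.104 in the labelled WT libraries. It was higher in each labelled Mdr2-knockout library than in each labelled WT library (exact permutation p = 0.1, the smallest possible). PDGF-B also binds receptor alpha, and the ratio of Pdgfb to Pdgfra was not tested. Its groups overlapped, with labelled Mdr2-knockout replicate 2 below labelled WT replicate 1. Pdgfb and Pdgfra stood at 0.900 and 3.22 FPKM in the former and at 0.213 and 0.691 FPKM in the latter. The ratios of Pdgfd to Pdgfrb, Pdgfa to Pdgfra and Pdgfc to Pdgfra overlapped between the groups, with exact permutation p of 0.4, 0.5 and 0.3. Of these 3, Pdgfc to Pdgfra ran from 1.32 to 1.70 in the labelled Mdr2-knockout and from 1.34 to 3.57 in the labelled WT libraries. None of the 10 ratios and shares tested here within the family could pass a threshold of 0.05 in this design, with or without adjustment.

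Receptor levels were then set beside markers of the cells that carry them. For every count of called list members below, the background is all tested genes, with 20.9% higher and 16.3% lower. Of 13 tested stellate cell markers, 5 were higher, 0 lower and 8 did not pass, with a median log2 fold difference of 0.43. Their summed level ran from 390.4 to 458 CPM in the labelled Mdr2-knockout and from 279 to 432 CPM in the labelled WT libraries, so the sums overlapped. Labelled WT replicate 3 stood above the other two of its group, and without it 8 markers were higher. On the log2 FPKM scales 8 were higher as well. Cygb, a globin of stellate cells, rose (log2 fold difference 1.68, edgeR adjusted p = 0.000943), as did the pericyte gene Rgs5 (1.16) and the transcription factor gene Hand2 (0.58). Lrat, which makes the retinyl esters that quiescent stellate cells store and stands outside the naming rule, had 22.6, 27.3 and 22.0 CPM in the labelled Mdr2-knockout libraries, against 8.84, 13.4 and 25.2 CPM in the labelled WT libraries. It differed by 0.60 on the log2 scale, not past the threshold (edgeR adjusted p = 0.299).

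Portal fibroblast markers moved in the same direction as the receptors. Of 8 tested markers, 7 were higher, 0 lower and 1 did not pass, with a median log2 fold difference of 2.06. Their summed level ran from 71.0 to 86.5 CPM in the labelled Mdr2-knockout and from 17.7 to 22.9 CPM in the labelled WT libraries. Elastin (Eln) stood at 19.1 ± 1.20 CPM in the labelled Mdr2-knockout and 3.47 ± 0.024 CPM in the labelled WT libraries (SD, n = 3 each), and dermatopontin (Dpt), Mfap4 and the ectonucleotidase gene Entpd2 had log2 fold differences of 2.20, 2.31 and 1.74. Smooth muscle markers were higher for 1 of 4, the smoothelin gene Smtn (0.62, edgeR adjusted p = 0.0209). That call did not hold without labelled Mdr2-knockout replicate 2 or labelled WT replicate 1. The smooth muscle genes Acta2, Tagln and Myh11 had log2 fold differences of 0.31, 0.35 and 0.20 and did not pass, although Tagln passed without labelled WT replicate 2.

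Relative to the stellate cell markers both receptors had larger values where the label says knockout, and relative to the portal fibroblast markers both were lower. Pdgfra equalled 2.14%, 2.52% and 2.29% of the summed FPKM of the stellate cell markers in the labelled Mdr2-knockout libraries, against 0.821%, 0.856% and 0.813% in the labelled WT libraries. Pdgfrb equalled 3.76%, 3.11% and 3.32% in the labelled Mdr2-knockout and 1.82%, 1.34% and 1.14% in the labelled WT libraries. Neither pair of groups overlapped. The gene Ecm1 made up 38.2% of this marker sum in the labelled Mdr2-knockout and 54.4% in the labelled WT libraries on average. Without Ecm1, a choice made after its values were seen, Pdgfra equalled 3.43% to 4.04% of the sum in the labelled Mdr2-knockout and 1.80% to 1.84% in the labelled WT libraries. Pdgfrb then equalled 4.99% to 6.03% in the labelled Mdr2-knockout and 2.52% to 4.03% in the labelled WT libraries.

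Against the portal fibroblast markers the order was turned round. Pdgfra equalled 8.25%, 9.63% and 8.57% of their summed FPKM in the labelled Mdr2-knockout libraries, against 9.84%, 9.66% and 15.2% in the labelled WT libraries. The groups were apart for Pdgfra by the small gap between 9.63% and 9.66%. Pdgfrb equalled 14.5%, 11.9% and 12.4% in the labelled Mdr2-knockout and 21.8%, 15.1% and 21.3% in the labelled WT libraries. Dpt made up 43.0% of this marker sum in the labelled Mdr2-knockout and 40.3% in the labelled WT libraries on average. The sum without Dpt was not examined. Each of the 4 comparisons with a full marker sum had an exact permutation p of 0.1, the smallest possible. The part that the numbers of either cell type have in the receptor changes was not tested.

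**Figure D4:**
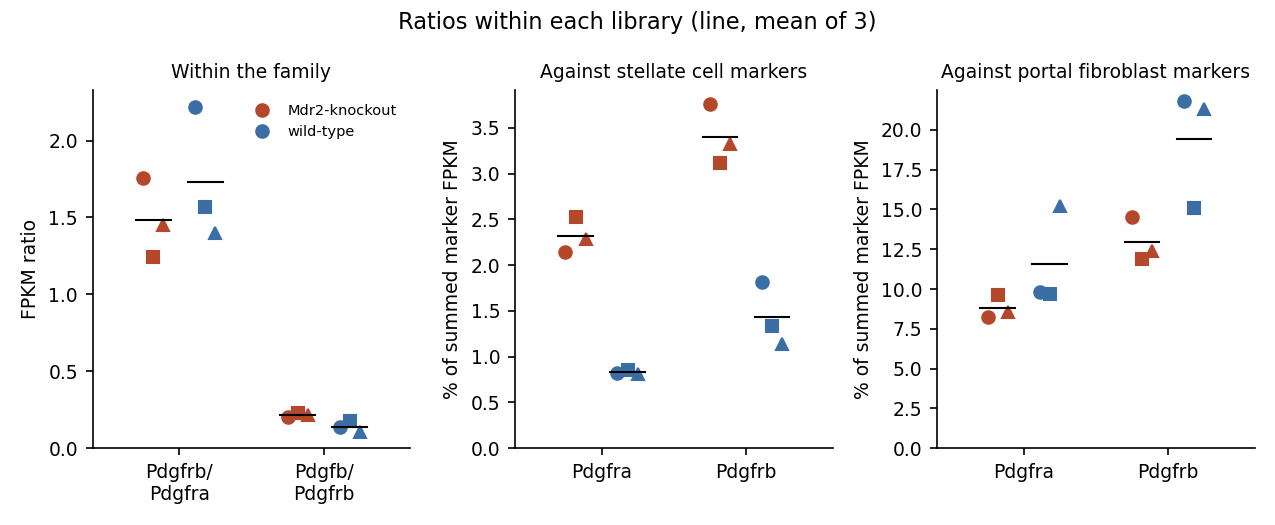
Ratios within each library for the labelled Mdr2-knockout (red) and labelled WT (blue) libraries, with a marker shape for each replicate number and a line at the mean of 3. The left panel shows Pdgfrb to Pdgfra and Pdgfb to Pdgfrb in FPKM, and the other panels show each receptor as a percent of the summed FPKM of stellate cell markers (middle, red above blue) and of portal fibroblast markers (right, red below blue).

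Markers of other cells known to make or store PDGF were read in the same way. The shares of all tested genes, 20.9% higher and 16.3% lower, apply here too. Endothelial markers were higher for 2, lower for 2 and did not pass for 7 of 11, with summed levels of 269 to 279 CPM in the labelled Mdr2-knockout and 257 to 294 CPM in the labelled WT libraries. Under total counts 6 were higher and 0 lower. The von Willebrand factor gene Vwf (log2 fold difference 0.66) and the scavenger receptor gene Stab2 (0.29) were the higher ones, and Kdr (-0.36) and Clec4g (-0.39) the lower ones with TMM. The call of Vwf was lost without labelled Mdr2-knockout replicate 1 or labelled WT replicate 2, and that of Stab2 without labelled Mdr2-knockout replicate 1 or 3 or labelled WT replicate 1 or 2. Kdr and Clec4g were not called with total counts. Against the summed FPKM of these markers, Pdgfb equalled 1.41%, 1.07% and 1.31% in the labelled Mdr2-knockout libraries, against 0.304%, 0.262% and 0.192% in the labelled WT libraries (exact permutation p = 0.1, the smallest possible). The groups did not overlap. Clec4g made up 42.9% of this marker sum in the labelled Mdr2-knockout and 49.7% in the labelled WT libraries on average.

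Platelet and megakaryocyte markers were scarce, and only Itga2b of 8 had enough counts for the test. Its log2 fold difference was -0.63 (edgeR adjusted p = 0.0491), a call that held with RLE factors and limma-voom and was lost in each other alternative, including without any 1 of the 6 libraries. The summed level of the 8 markers was 2.57 to 3.87 CPM in the labelled Mdr2-knockout and 2.86 to 3.77 CPM in the labelled WT libraries. In FPKM the sum was 1.58 to 3.31 in the labelled Mdr2-knockout and 1.00 to 1.61 in the labelled WT libraries, which also overlapped. Of the untested platelet genes, the chemokine genes Pf4 and Ppbp, chosen after their values were seen, had 41 and 27 counts over the labelled Mdr2-knockout libraries, against 11 and 11 over the labelled WT libraries. Without labelled Mdr2-knockout replicate 2, 1 marker of the list was called higher.

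Macrophage markers were higher for 7 of 10, lower for 0, and had a median log2 fold difference of 1.30. Gpnmb, Ccr2, Trem2 and the integrin gene Itgam had log2 fold differences of 4.52, 2.94, 1.79 and 2.44. Clec4f, Timd4 and Csf1r, named outside the rule, had log2 fold differences of 0.14, 0.083 and 0.54 and did not pass. The 10 markers summed to 467 to 499 CPM in the labelled Mdr2-knockout and 186 to 325 CPM in the labelled WT libraries. In FPKM the sum was 316 to 321 in the labelled Mdr2-knockout and 81.2 to 137 in the labelled WT libraries. Lyz2 made up 69.7% of this FPKM sum in the labelled Mdr2-knockout and 49.9% in the labelled WT libraries on average. Pdgfb was not set against this sum.

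Bile duct cell markers were higher for all 9 tested of 10, with a median log2 fold difference of 3.41 and summed levels of 377 to 415 CPM in the labelled Mdr2-knockout and 61.4 to 80.6 CPM in the labelled WT libraries. Epcam, Krt19, Cldn4 and Bicc1 were the named ones, with log2 fold differences of 3.41, 3.53, 5.76 and 2.58. Cldn4 rested on 4 counts over the labelled WT libraries, and Cftr, named outside the rule, on 1. Both had enough counts for the test only through the labelled Mdr2-knockout libraries, so the size of their differences is uncertain. Pdgfa equalled 0.527%, 0.880% and 0.446% of the summed FPKM of these markers in the labelled Mdr2-knockout libraries, against 1.28%, 1.33% and 1.96% in the labelled WT libraries, lower in each labelled Mdr2-knockout library (exact permutation p = 0.1, the smallest possible). Spp1 made up 83.1% of this sum in the labelled Mdr2-knockout and 68.1% in the labelled WT libraries on average. Hepatocyte markers were lower for 8 of 10, higher for 1 and did not pass for 1. Albumin (Alb), Ttr and Cyp2e1 had log2 fold differences of -0.79, -0.83 and -1.55, and Cyp3a11, the higher one, of 1.27. With total counts 2 hepatocyte markers were higher and 5 lower. No marker of any of these lists was at 0 in all 6 libraries, and the part of macrophages, platelets, bile duct cells and hepatocytes in the PDGF results was not tested.

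Of 10 tested genes for the processing and binding of PDGF ligands, 4 were higher, 4 lower and 2 did not pass. Plat, tissue plasminogen activator, which releases active PDGF-C, averaged 7.07 ± 0.241 CPM in the labelled Mdr2-knockout and 0.762 ± 0.253 CPM in the labelled WT libraries (SD, n = 3 each; log2 fold difference 3.20, SE 0.24, edgeR adjusted p = 1.09e-05). St14, the membrane protease matriptase, which can activate PDGF-D and is an epithelial enzyme, averaged 8.78 ± 0.743 CPM in the labelled Mdr2-knockout and 0.869 ± 0.151 CPM in the labelled WT libraries (log2 fold difference 3.33, SE 0.20, edgeR adjusted p = 3.35e-06). Plau, urokinase, a further activator of PDGF-D named outside the rule, differed by 1.15 on the log2 scale, short of the threshold (edgeR adjusted p = 0.0583), but passed with total counts.

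Other members of that list lay on both sides of 0. Sparc, a matrix protein that binds PDGF-B and keeps it from its receptors, averaged 82.7 ± 8.34 CPM in the labelled Mdr2-knockout and 33.4 ± 4.19 CPM in the labelled WT libraries (log2 fold difference 1.31). The proprotein convertase gene Pcsk7 was lower with TMM (-0.47, edgeR adjusted p = 0.000909), and so were Furin (-0.37) and the endocytic receptor gene Lrp1 (-0.50), both named outside the rule. These 3 calls were lost with total counts, under which 5 genes of the list were higher and 0 lower. Furin encodes the convertase that cuts PDGF-A and PDGF-B.

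Genes that pass receptor signals on are shared with many other receptors. Of 20 tested genes for adaptors, enzymes and kinases next to the receptor, 2 were higher, 5 lower and 13 did not pass, with a median log2 fold difference of -0.14. Src, a kinase that binds activated PDGF receptors, averaged 10.5 ± 0.835 CPM in the labelled Mdr2-knockout and 2.35 ± 0.919 CPM in the labelled WT libraries (SD, n = 3 each; log2 fold difference 2.15, SE 0.22, edgeR adjusted p = 9.6e-05). The adaptor gene Nck2 was also higher (0.74), a call that did not hold without any 1 labelled Mdr2-knockout library or without labelled WT replicate 2 or 3. Pik3r1, which encodes the regulatory subunit of PI3-kinase, was lower with TMM (-0.39) and so was Shc1 (-0.23), but the call of Shc1 was lost with upper-quartile factors and without labelled Mdr2-knockout replicate 1 or 2 or labelled WT replicate 3, and its value was 0.063 with total counts. Pik3r1 was not called with total counts. Under total counts 6 genes of this list were higher and 0 lower, and with upper-quartile factors 2 were higher and 1 lower.

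Of 10 tested genes that attenuate the receptors, 3 were higher, 1 lower and 6 did not pass. The ubiquitin ligase gene Cbl, which marks activated receptors for breakdown, had a log2 fold difference of 0.46 (edgeR adjusted p = 0.00662). The adaptor genes Sh3kbp1 and Sla had log2 fold differences of 1.03 and 0.93, and the phosphatase gene Ptpn12 was lower with TMM (-0.32), but not called with total counts (-0.028), where 4 genes were higher and 0 lower. Over the 5 pathway lists together, 18 of 68 tested genes were higher (26.5%) and 13 lower (19.1%), beside 20.9% and 16.3% of all tested genes. These shares lie near the background.

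Growth factors and receptors related to the PDGF family, some factors only through the receptor they bind, moved in both directions with TMM. Of 14 tested, 4 were higher, 2 lower and 8 did not pass, with a median log2 fold difference of 0.37. Csf1, the macrophage growth factor gene, averaged 19.0 ± 2.66 CPM in the labelled Mdr2-knockout and 7.13 ± 1.19 CPM in the labelled WT libraries (log2 fold difference 1.41), and Vegfd had a log2 fold difference of 1.33. Vegfa (-0.50) and its receptor gene Kdr (-0.36) were lower with TMM, calls that were lost with total counts, under which 9 genes were higher and 0 lower. No test of the difference between this list and the PDGF genes was made.

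Genes known to be induced by PDGF in cultured fibroblasts, of which 14 of 19 were tested, were higher for 5, lower for 1 and did not pass for 8, with a median log2 fold difference of 0.68. The chemokine gene Ccl2 averaged 3.87 ± 0.404 CPM in the labelled Mdr2-knockout and 0.255 ± 0.170 CPM in the labelled WT libraries (log2 fold difference 3.89, SE 0.37, edgeR adjusted p = 5.17e-05). Egr2, Ier3 and the matricellular gene Ccn1 had log2 fold differences of 3.67, 2.52 and 0.91, and Egr2 rested on 4 counts over the labelled WT libraries. The immediate early genes Fos, Jun, Junb and Egr1, named outside the rule, had log2 fold differences of -0.52, 0.098, -0.15 and 0.48 and did not pass. Myc, also outside the rule, passed (0.90, edgeR adjusted p = 0.0241). Fosb and Egr3 had too few counts for the test, with 46 and 32 counts over the labelled Mdr2-knockout libraries, against 5 and 4 over the labelled WT libraries. Without the low-count filter, 9 genes of the list were higher. Srf, the gene of serum response factor and also outside the rule, was lower with TMM (-0.27, edgeR adjusted p = 0.0393) but not with upper-quartile factors (-0.22) or total counts (0.020). Its call was also lost with DESeq2, on both log2 FPKM scales and without any 1 library other than labelled WT replicate 3.

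**Figure D5:**
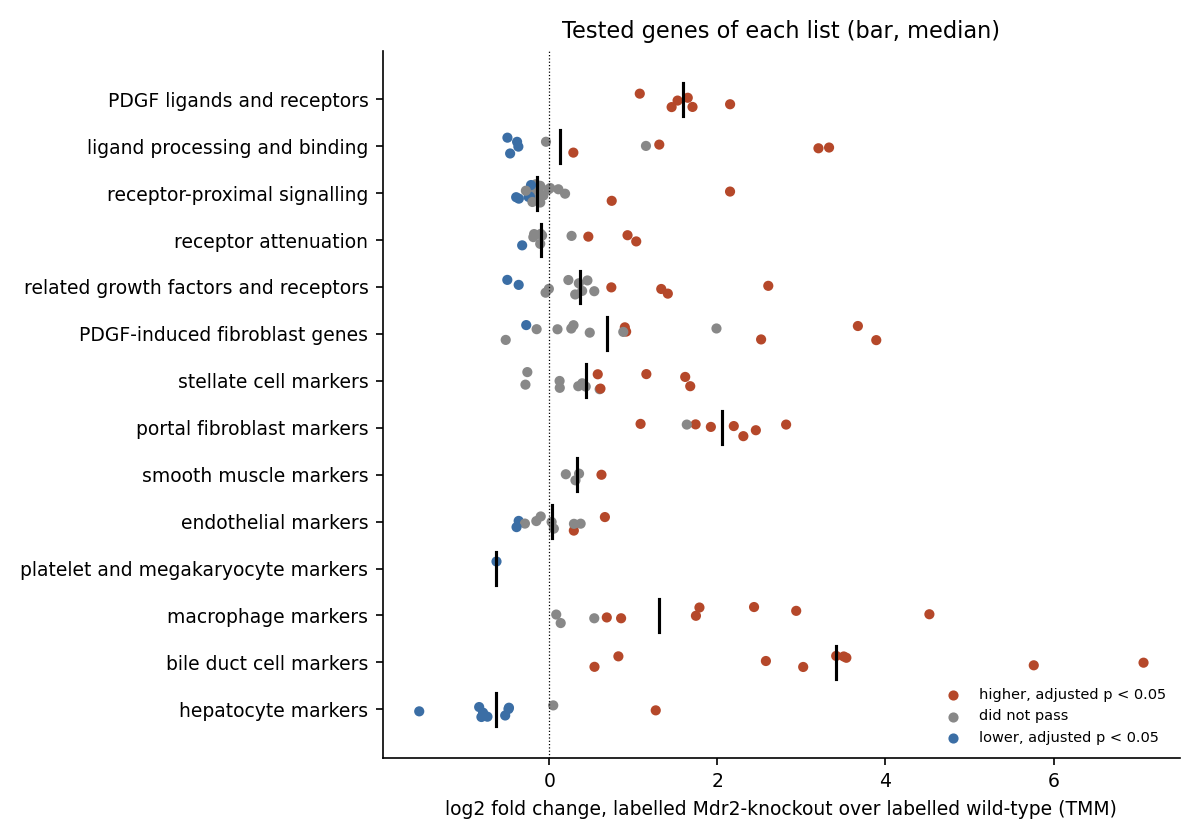
Log2 fold change with TMM factors (horizontal axis) of the tested genes of each list, with 1 point per gene and a bar at the list's median. At an edgeR adjusted p under 0.05, red points mark genes higher and blue points genes lower in labelled Mdr2-knockout liver, and grey points did not pass. All 6 PDGF genes are red, with a median of 1.59, while the receptor-proximal signalling list is centred at -0.14.

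The genes whose profile over the 6 libraries lay nearest to each PDGF gene were found among 11617 tested genes of at least 1 CPM, by the root mean square difference of centred log2 CPM. The distance takes in both the difference between the groups and the spread within them. For Pdgfra they were Timp2, an inhibitor of metalloproteinases (0.094), Fgd3 (0.097) and Wnt4 (0.103). For Pdgfrb they were Fgd1 (0.050), Eps8 (0.126) and the procollagen protease gene Adamts2 (0.128). For Pdgfd they were Pkhd1, the fibrocystin gene of bile duct and kidney epithelium (0.047), the integrin gene Itga4 (0.055) and Mettl15 (0.114).

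The remaining ligands had other neighbours. Those of Pdgfa were Cln6 (0.082), Phospho1 (0.129) and Ajuba (0.137), which were also highest in labelled Mdr2-knockout replicate 2. Those of Pdgfb were Kcne3 (0.095), Dcdc2a (0.120) and Fads3 (0.121), and those of Pdgfc were Ccdc88c (0.078), Sdk2 (0.112) and Lrrc1 (0.117). Each of these 18 genes passed the test, all of them higher in the labelled Mdr2-knockout libraries, a direction they owe to how they were chosen. The call of Sdk2 was lost with DESeq2, without the low-count filter, on the log2(FPKM + 1) scale and without any 1 library other than labelled WT replicate 1. That of Lrrc1 was lost without labelled Mdr2-knockout replicate 1 or 2 or labelled WT replicate 2 or 3. Among the PDGF genes themselves the nearest pair was Pdgfd and Pdgfrb (0.127), and the farthest was Pdgfc and Pdgfra (0.525). Each of these pairs is a ligand and its receptor.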

How the data were processed

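Per the submitters' processing notes, the mouse build was mm10 and the tools were HISAT2, Bowtie2, SAMtools, StringTie, Cufflinks, HTSeq, DESeq and Trimmomatic. Not given in the sources used here are the tools' versions and roles, the gene models and whether strand was used. The authors deposited raw counts of reads, listed by gene symbol, and FPKM for the same genes and libraries. Within each of 15493 genes the deposited FPKM were proportional to count over library total (tolerance 1e-04), so they are no independent measurement.

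The genotypes were compared in R 4.3.3 with edgeR 4.0.16, using filterByExpr (minimum count 10, minimum total 15), TMM factors, a robust quasi-likelihood fit with group as the only term and Benjamini-Hochberg adjustment over 12612 genes at 0.05. SEs come from each gene's log2 fold difference and F statistic. CPM divide counts by TMM-scaled library sizes. Ratios were tested by exact two-sided permutation (SciPy 1.17.1). A floor of 3 counts in 1 library equals 0.149 to 0.192 CPM. In simulated counts 67, 67 and 66 of 12612 genes were changed by 1.5-, 2- and 4-fold. The fit recovered most large changes and missed many small ones, and the share of false calls, 11.6%, was above the adjusted p threshold. Far fewer genes changed there than were called in these data, so that share need not hold here. Calls close to 0.05 are taken as weak. Alternatives were other scalings, DESeq2 1.42.0, limma-voom (limma 3.58.1), other filters, limma-trend on log2(FPKM + 0.1) and log2(FPKM + 1), a replicate block and leaving out each library. No 2 libraries of a group agreed within sampling noise (lowest chi-square over degrees of freedom 16.04).

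The members and lists were chosen with earlier results of these data known. Named are the members, Abcb4, in each list the 4 genes of lowest p, and the 3 nearest profiles of each member (prior count 2, mean at least 1 CPM, predicted genes left out). Of the genes this rule names, some are not reported here.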

Additional observations from a re-analysis of the deposited data

How the results depend on the processing

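All 6 PDGF genes kept their direction and their call in each of 16 alternatives, with the largest adjusted p, 0.00995, for Pdgfa without labelled WT replicate 2 (edgeR). Leaving out 1 library at a time gave log2 fold changes of 1.17 to 1.63 for Pdgfa, 2.00 to 2.24 for Pdgfb, 0.88 to 1.26 for Pdgfc, 1.56 to 1.71 for Pdgfd, 1.57 to 1.90 for Pdgfra and 1.41 to 1.65 for Pdgfrb. On the log2(FPKM + 1) scale Pdgfa, Pdgfb and Pdgfd stood at 0.77, 0.78 and 0.90, since that pseudocount is large beside their levels. The Pdgfrb to Pdgfra difference was -0.16 with 0.1 added to both FPKM.

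With total counts, log2(FPKM + 0.1) and log2(FPKM + 1), the genes called higher numbered 5943, 5750 and 5751 and those lower 330, 332 and 334, against 2634 and 2051 with TMM. Under the same 3 settings the pathway lists had 32, 32 and 33 higher and 0, 0 and 0 lower members, against 18 and 13, and the cell type lists had 5, 5 and 5 lower members, against 11. With upper-quartile factors 8 pathway members were lower. The higher share of calls was 56.2% with TMM, 67.2% with upper-quartile factors and 94.7% with total counts. Shc1 turned to 0.063, 0.064 and 0.060 under those 3 settings. Myh11 turned to -0.11 and -0.24, and Acta2 to -0.11 and -0.084, without labelled Mdr2-knockout replicate 3 or labelled WT replicate 1, and their highest values, 1.03 and 0.97, came without labelled WT replicate 2, all uncalled. The cause was not tested, except that total counts shift all genes by one factor per library, while a pseudocount draws low genes towards 0.

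No pairing by replicate number was seen, although 3 libraries per group could not exclude one. Deviations of libraries with the same number correlated at 0.084, 0.045 and -0.076, and not every library correlated best with its own number. With the replicate block 4568 genes were called in place of 4685, and all 6 PDGF genes remained among them, while Srf, Itga2b and Sdk2 lost their calls. At these depths Pdgfb in the labelled WT libraries, with 11 to 15 counts, is the member most limited by counting error.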
